A study of Homo sapiens with 8 samples.

Results

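Integrator and the mRNA 3′ end processing machinery were followed through the guides of a pooled CRISPR-Cas9 loss-of-function screen. The genes were taken from a list of 31 symbols, and every guide whose target in the count table carried one of these symbols was kept, whatever its counts. Guides were found for 30 symbols, 6 for each, which made 180 of 119461 guides, and no guide carried the symbol PABPN1 in the table used. Of the 30 genes, 12 code for Integrator subunits (INTS1 to INTS10, INTS12 and CPSF3L, now named INTS11) and 6 for the cleavage and polyadenylation specificity factor CPSF (CPSF1 to CPSF4, FIP1L1 and WDR33). The others are the cleavage stimulation factor genes CSTF1, CSTF2 and CSTF3 with the scaffold gene SYMPK, the cleavage factor Im genes CPSF6, CPSF7 and NUDT21, the cleavage factor IIm genes PCF11 and CLP1, the poly(A) polymerase gene PAPOLA, and SSU72 and RBBP6. The screen used MB157R, a triple-negative breast cancer line resistant to γ-secretase inhibitor (GSI), and all cells carried Cas9 and 1 guide library (human GeCKOv2, parts A and B). There were 3 GSI cultures, kept for 14 days with LY3039478 at 10 µM, 3 DMSO cultures kept for the same 14 days with vehicle, and 2 aliquots taken at T0, after 4 days of puromycin selection. All 8 libraries came from 1 pool of transduced cells of 1 line, so that p-values measure the spread between cultures or aliquots of that pool. The counts come from genomic DNA and hold no expression, so the cell type of the label could not be checked against markers.

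Integrator is a large complex that binds RNA polymerase II. Its endonuclease releases small nuclear RNAs from their nascent transcripts and ends transcription close to many promoters, and a phosphatase arm works on the polymerase itself. The 3′ end of nearly all other mRNAs is made by CPSF, which reads the polyadenylation signal and cuts, together with CstF and the cleavage factors, after which poly(A) polymerase adds the tail. CPSF3 in CPSF and CPSF3L in Integrator are paralogous endonucleases. Most of these proteins are required for growth of dividing human cells, and in a pooled screen a guide that disrupts such a gene becomes rarer while the culture grows.

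Library totals lay between 12.1 M and 18.2 M counts (M, 1e+06), with a median of 66 to 112 counts per guide. Guides listed at 0 made up 0.738% to 2.40% of each GSI library, 2.64% to 3.94% of each DMSO library and 5.12% and 11.5% of the T0 libraries. In GSI replicate 1 a single guide against VPS33B took 38.8% of all counts. Of the 180 guides, 171 had a mean of at least 10 raw counts and were tested, and the other 9 were against SYMPK (2 guides) and CLP1, CPSF2, CPSF3, CSTF1, CSTF3, PAPOLA and RBBP6 (1 each). SYMPK was therefore read from 4 guides, 7 genes from 5 and 22 genes from 6. The 180 guides had median raw counts of 52, 70.5 and 57.5 in the GSI libraries, 51, 57 and 47 in the DMSO libraries, and 120.5 and 99 in the T0 libraries. These medians are not scaled for library size, and scaled levels of the list are given after the comparisons. Since PCR copies were not told apart from separate molecules, depth and counting intervals speak of counting error only.

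Levels below are normalized counts, that is raw counts divided by the size factor of the library, and the level of a gene is the mean over its tested guides. Each gene is summarised by the median of its guides' log2 fold changes, given ± the SD over guides. Gene p-values are one-sided and come from robust rank aggregation of edgeR guide p-values, on the low side (guides rarer) and on the high side (guides more frequent), with Benjamini-Hochberg adjustment over 18570 genes. A gene or guide was called at an adjusted p under 0.05.

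To ask which of these genes the resistant cells lost during culture without inhibitor, DMSO cultures were compared with T0. Guides against the 30 genes were rarer in the DMSO cultures on the whole. The median fold change over the 30 genes was -0.64 on the log2 scale, against 0.0048 over all genes tested, and 21 genes had a negative and 9 a positive value, where 49.6% of all genes were negative. The lowest values belonged to INTS8 (-2.53), RBBP6 (-1.68) and SYMPK (-1.68), and the highest to CSTF2 (0.51) and CLP1 (0.50). None of the 30 was called on either side by the aggregation of edgeR p-values, where 0.0323% of all genes were called lower and 0 higher. INTS8 came closest, with an adjusted p of 0.0913. At an unadjusted low-side p under 0.05 there were 11 of the 30 genes (36.7%), against 6.12% of all genes, and on the high side 0, against 5.30%. The 11 genes were INTS8, SYMPK, RBBP6, INTS10, FIP1L1, PCF11, INTS9, PAPOLA, SSU72, CPSF4 and INTS12, so that 4 of 12 Integrator genes and 2 of 6 CPSF genes were among them. In 13 genes (43.3%) every DMSO library lay below both T0 libraries in mean level, against 17.1% of all genes, and in 0 genes every DMSO library lay above, against 12.4%. Without T0 replicate 1 the median fold change over the 30 genes was -0.59, against 0.23 over all genes. Without T0 replicate 2 it was -0.50, against 0.11 over all genes. With other tools, 12 genes passed the unadjusted threshold on the low side when DESeq2 gave the guide p-values (6.12% of all genes) and 9 with limma on mean log2 values (5.31% of all genes).

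Single guides in that comparison are the data behind the gene values, so their counts are no second line of evidence. Of the 171 tested guides, 38 (22.2%) had a log2 fold change of -2 or lower, against 5.13% of all gene guides, and 5 had one of 2 or higher (2.92%), against 7.68%. At an unadjusted p under 0.05 there were 29 lower guides (17%), against 3.60% of all gene guides, and 3 higher ones (1.75%), against 4.21%. No single guide was called by edgeR, in this list or among all guides (0%), while DESeq2 called 22 of the 171 and 5.66% of all guides. For scale, 44% of 84 cytosolic ribosome genes and 1.91% of 366 olfactory receptor genes had a low-side p under 0.05 in this comparison.

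The comparison of GSI cultures with T0 uses the same T0 libraries, so its values are given beside the first and are no second test of them. The median fold change over the 30 genes was -0.52 on the log2 scale, against -0.02 over all genes tested, with 24 negative and 6 positive values (51.3% of all genes negative). SYMPK (-1.72), CSTF1 (-1.39) and INTS8 (-1.19) had the lowest values, and INTS2 (0.78) and CSTF2 (0.67) the highest. The aggregation of edgeR p-values called 0 of the 30 genes and 0 of all genes on each side, the nearest being SYMPK with an adjusted p of 0.0920. At an unadjusted low-side p under 0.05 there were 9 genes (30%), against 5.69% of all genes, namely SYMPK, INTS10, FIP1L1, PCF11, CPSF4, RBBP6, SSU72, CPSF6 and INTS3, and on the high side 0, against 5.39%. The low-side count was 9 with DESeq2 guide p-values (5.72% of all genes) and 9 with limma (4.03% of all genes). Every GSI library lay below both T0 libraries for 15 genes (50%), against 19.2% of all genes, and above both for 0, against 11.4%. Of the 171 guides, 28 (16.4%) had a log2 fold change of -2 or lower, against 3.68% of all gene guides, and 4 had one of 2 or higher (2.34%), against 7.20%. At an unadjusted p under 0.05, 28 guides were lower (16.4%), against 4.11%, and 6 higher (3.51%), against 4.72%. Here again edgeR called none of the guides, and DESeq2 called 23 of the 171 and 6.71% of all guides. The cytosolic ribosome had 36 of 84 and the olfactory receptors 8 of 366 genes at a low-side p under 0.05.

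The question of whether loss of an Integrator or cleavage gene changes the fitness of MB157R cells under the inhibitor was addressed by comparing GSI with DMSO cultures. The median fold change over the 30 genes was 0.06 on the log2 scale, against -0.02 over all genes, and the range ran from -0.65 (INTS4) to 0.97 (INTS8). There were 10 negative and 20 positive values, where 52.7% of all genes were negative. None of the 30 genes and none of all genes (0%) was called on either side, the lowest adjusted p on the low side being 0.959 (INTS4) and on the high side 0.808 (INTS9). On the low side 1 gene, INTS4, had an unadjusted p under 0.05 (3.33%), against 5.06% of all genes. On the high side there were 6 (20%), against 4.99%, namely INTS9, INTS8, PAPOLA, CPSF3L, INTS12 and PCF11. That count was 5 with DESeq2 guide p-values (5.11% of all genes), 3 with limma (7.44% of all genes) and 1 with edgeR on counts summed over guides (3.34% of all genes). It was also 3 without GSI replicate 3 (5.25% of all genes), without DMSO replicate 2 (5.33%) and without DMSO replicate 3 (5.08%). Every GSI library lay below every DMSO library for 1 gene (INTS4, 3.33%), against 5.85% of all genes, and above for 2 (INTS8 and CPSF7, 6.67%), against 3.70%. Among single guides, 1 had a log2 fold change of -2 or lower (0.585%), against 0.519% of all gene guides, and 7 had one of 2 or higher (4.09%), against 1.33%. At an unadjusted p under 0.05 there were 3 lower guides (1.75%), against 1.49%, and 6 higher guides (3.51%), against 1.55%, and neither edgeR nor DESeq2 called any of the 171. For scale, 9 of 84 cytosolic ribosome genes (10.7%) and 20 of 366 olfactory receptor genes (5.46%) had a high-side p under 0.05. On the low side there were 0 and 17 (4.64%). Every GSI library lay above every DMSO library for 13.1% of the ribosome genes, and below for 1.19%.

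The level of the list as a whole, taken per library as the median over the 171 guides of log2(normalized count + 1), with the T0 mean subtracted, was -0.27 ± 0.02 in GSI cultures and -0.41 ± 0.03 in DMSO cultures (SD over 3 cultures each). All gene guides stood at 0.23 in both, and the cytosolic ribosome at -0.39 ± 0.12 in GSI cultures and -0.60 ± 0.09 in DMSO cultures. Non-targeting controls stood at 0.28 ± 0.02 in GSI cultures and 0.34 ± 0.01 in DMSO cultures. The 3 GSI cultures (-0.29, -0.25 and -0.27) and the 3 DMSO cultures (-0.41, -0.39 and -0.44) did not overlap for this list, whose genes were chosen with results of this screen known, and no test was made of it. The same held for the cytosolic ribosome, at -0.26, -0.50 and -0.41 with GSI and -0.53, -0.57 and -0.70 with DMSO, while non-targeting controls did not overlap in the opposite direction, at 0.26, 0.28 and 0.29 with GSI and 0.35, 0.33 and 0.35 with DMSO.

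Among the 12 Integrator genes, INTS8 had the lowest fold change in both comparisons with T0 and the highest in GSI against DMSO. INTS8 carries the site at which the phosphatase PP2A joins the complex, and its gene lies on chromosome 8. Its mean level was 58.4, 53.2 and 56.3 normalized counts in the GSI cultures, 27.6, 31.6 and 35.7 in the DMSO cultures, and 145 and 101 at T0. The 3 groups did not overlap, with T0 highest and DMSO lowest. In DMSO against T0 all 6 guides were negative, at -2.89, -2.40, -1.16, -1.40, -3.09 and -2.66 on the log2 scale, and the gene stood at -2.53 ± 0.80 (low-side adjusted p = 0.0913). Without T0 replicate 1 its value was -1.33 (adjusted p = 0.937), the 1 of 20 fits in which its unadjusted p was not under 0.05. The T0 aliquots themselves lay apart for single guides, as for HGLibB_23402, at 68.6 and 0 normalized counts. In GSI against T0 all 6 guides were negative as well, from -2.62 to -0.12, and the gene stood at -1.19 ± 1.01 (low-side adjusted p = 0.968), but without T0 replicate 1 at 0.23. The 6 guides in GSI against DMSO were at 0.28, 1.82, -0.23, 1.29, 0.65 and 1.66, and the gene at 0.97 ± 0.81, with a high-side adjusted p of 0.945.

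The cleavage module of Integrator pairs the endonuclease CPSF3L with its inactive partner INTS9, and INTS4 holds them together. CPSF3L had mean levels of 87.5, 125 and 122 normalized counts with GSI, 110, 128 and 88.1 with DMSO, and 156 and 161 at T0. Both kinds of culture lay below T0 and overlapped each other. Its 6 guides were at 0.72, -0.22, -1.29, -0.74, -6.35 and -0.71 in DMSO against T0 and at 0.93, -0.45, -1.09, -0.48, -1.54 and -0.85 in GSI against T0, and the gene stood at -0.72 ± 2.50 and -0.66 ± 0.84 (low-side adjusted p = 0.817 and 0.916). Its guides in GSI against DMSO were at 0.21, -0.23, 0.19, 0.26, 4.81 and -0.14, and the gene at 0.20 ± 1.95 (high-side adjusted p = 0.968). That p rested on 1 guide, HGLibB_10991, which had 21.3, 23.7 and 49.6 normalized counts with GSI, 1.02, 0 and 2.12 with DMSO, and 86.6 and 97.3 at T0. It had 3 raw counts over the 3 DMSO cultures together, against 100 over the GSI cultures, a 32.7-fold ratio with an exact 95% interval of 10.9 to 161 that covers counting error only, so that the fitted values of this guide are imprecise.

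For INTS9, which lies on chromosome 8 with INTS8, INTS10 and CPSF1, the mean levels were 79.1, 99.8 and 86.0 normalized counts with GSI, 106, 56.2 and 72.5 with DMSO, and 162 and 70.6 at T0. The 3 groups overlapped, and the T0 aliquots lay further apart than the cultures. Its lowest p-values came from the guide HGLibA_23437, which had 31.4, 6.67 and 56.5 normalized counts with GSI, 0 in every DMSO culture, and 356 and 30.96 at T0. Against a floor of 3 raw counts per library, its group mean was at least 10.8-fold higher in GSI than in DMSO cultures. It was at least 66.1-fold lower in DMSO cultures than at T0. Both bounds are on means, and are smaller against the GSI culture at 6.67 or the T0 aliquot at 30.96 normalized counts. The other 5 guides of INTS9 were at 0.70, 0.01, 0.15, 0.05 and -1.21 in GSI against DMSO, and between -1.90 and 0.34 in DMSO against T0. The gene stood at 0.10 ± 3.37 in GSI against DMSO (high-side adjusted p = 0.808) and at -0.0030 ± 4.35 in DMSO against T0 (low-side adjusted p = 0.566). With guides of part B of the library alone, which leaves that guide out, the adjusted p was 1 on the high side in GSI against DMSO and 1 on the low side in DMSO against T0.

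INTS4, a scaffold of the same module on chromosome 11 (GRCh38, chr11:77874362-77994668), was the only one of the 30 whose GSI cultures all lay below the DMSO cultures. The mean levels were 104, 59.5 and 82.4 normalized counts with GSI, 133, 116 and 157 with DMSO, and 163 and 88.6 at T0. Its guides were at -0.81, -0.50, -0.46, 2.04, -1.40 and -1.23 on the log2 scale in GSI against DMSO, and the gene at -0.65 ± 1.25 (low-side adjusted p = 0.959). The positive guide, HGLibB_23388, was rare in all cultures, with 15.1, 2.22 and 4.87 normalized counts with GSI and 5.11, 0 and 0 with DMSO, against 112 and 0 at T0. INTS4 had a negative value in GSI against DMSO under each of the 20 alternatives run, and its adjusted p was 0.831 or higher in all of them. Its unadjusted p was under 0.05 in 19 of 21 fits, but not without DMSO replicate 3 (-0.44, adjusted p = 0.981) or with limma (-0.49, adjusted p = 0.961). Its guides in DMSO against T0 ranged from -4.96 to 2.48, and the gene stood at 0.15 ± 2.52 (low-side adjusted p = 1).

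INTS10, a subunit of the arm of Integrator that also holds INTS13 and INTS14, had mean levels of 141, 129 and 127 normalized counts with GSI, 153, 172 and 123 with DMSO, and 195 and 198 at T0. Both kinds of culture lay below T0. Its guides were of opposite kinds: in DMSO against T0, 3 stood at -2.01, -3.03 and -2.63, a pair at 0.01 and 0.26, and HGLibB_23376 at 3.91. That last guide had 245, 87.4 and 206 normalized counts with GSI, 324, 192 and 183 with DMSO, and 0 and 30.96 at T0. In GSI against T0 the 6 guides were at -2.44, -2.03, -0.10, 3.54, -4.19 and 0.29. The gene stood at -0.9996 ± 2.59 in DMSO against T0 (low-side adjusted p = 0.400) and at -1.06 ± 2.69 in GSI against T0 (low-side adjusted p = 0.472). Its guides in GSI against DMSO lay between -1.56 and 1.00 and the gene at -0.25 ± 0.83.

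INTS12, a subunit with a PHD finger, had 118, 90.7 and 79.8 normalized counts with GSI, 118, 91.0 and 76.4 with DMSO, and 107 and 150 at T0. The GSI and DMSO levels were nearly alike and overlapped T0. In DMSO against T0, 5 guides were at -1.14, -1.62, -1.46, -1.84 and -0.52, and the sixth, HGLibA_23413, at 1.88, with 404, 312 and 208 normalized counts with DMSO against 122 and 45.1 at T0. The gene stood at -1.30 ± 1.38 in DMSO against T0 (low-side adjusted p = 0.809, high-side adjusted p = 0.984) and at -0.47 ± 0.85 in GSI against T0 (low-side adjusted p = 1). Its guides in GSI against DMSO were at 0.69, 1.13, -0.84, -0.10, 1.07 and 0.40, and the gene at 0.55 ± 0.76 (high-side adjusted p = 0.968).

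INTS2, which belongs to the core of the complex, had 108, 174 and 97.0 normalized counts with GSI, 107, 103 and 140 with DMSO, and 115 and 244 at T0. The groups overlapped. Its guides went both ways in every comparison, at 0.94, -0.86, -0.79, -1.34, 0.70 and 0.93 in GSI against DMSO, where the gene stood at -0.05 ± 1.04 (low-side adjusted p = 0.984, high-side adjusted p = 0.968). The gene was at 0.12 ± 1.69 in DMSO against T0 and at 0.78 ± 1.68 in GSI against T0, with guides from -2.56 to 1.91 in DMSO against T0 and at 0.87, 0.70, 1.12, -2.58, -1.86 and 1.23 in GSI against T0. The T0 spread of the gene came with the guide HGLibB_23383, which had 137, 224 and 249 normalized counts with GSI, 18.4, 150 and 208 with DMSO, and 364 and 1115 at T0.

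The remaining Integrator genes are INTS1, INTS3, INTS5, INTS6 and INTS7. INTS3, which also sits in the single-strand DNA binding complex SOSS, stood at -1.10 ± 1.66 in DMSO against T0 and at -0.95 ± 3.36 in GSI against T0 (low-side adjusted p = 0.901 and 0.850). Its guide HGLibB_23387 had 0 in every GSI culture, 0, 29.5 and 0 normalized counts with DMSO and 0 and 89.3 at T0. Against the same floor, its group mean was at least 3.31-fold higher with DMSO and at least 15.04-fold higher at T0 than with GSI. Each of these means rested on 1 library, so the bounds do not hold against the DMSO and T0 libraries at 0. INTS6, a subunit of the phosphatase arm, stood at -0.89 ± 2.67 in DMSO against T0 and at -0.27 ± 1.93 in GSI against T0 (low-side adjusted p = 0.830 and 0.888), with 1 guide, HGLibB_23394, at 3.77, 5.93 and 5.84 normalized counts with GSI, 0, 0 and 3.19 with DMSO, and 134 and 71.7 at T0. INTS1, INTS5 and INTS7 lay between -0.54 and 0.32 in DMSO against T0 and between -0.36 and 0.10 in GSI against T0, and their low-side adjusted p was 1 in both. In GSI against DMSO these 5 genes lay between 0.00093 and 0.24.

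In CPSF, 5 of the 6 genes (83.3%) had every DMSO library below both T0 libraries, against 17.1% of all genes. For Integrator this held for 4 of 12 genes (33.3%) and for CstF with SYMPK for 2 of 4. In cleavage factors Im and IIm it held for 0 of 3 and 0 of 2, and PAPOLA and RBBP6 met it too. The share at a low-side p under 0.05 was 33.3% in both CPSF and Integrator. The same 5 CPSF genes had every GSI library below these same T0 libraries, against 19.2% of all genes. The exception was CPSF1, the large subunit. Its levels were 92.1, 55.9 and 65.7 normalized counts with GSI, 99.8, 57.4 and 60.7 with DMSO, and 66.5 and 80.8 at T0. For the endonuclease CPSF3 the mean levels were 51.0, 47.1 and 42.8 normalized counts with GSI, 38.4, 74.4 and 46.5 with DMSO, and 97.6 and 89.2 at T0. Its 5 tested guides stood at -0.38, -2.61, -4.54, 1.39 and -0.42 in DMSO against T0 and at -0.14, -2.03, -1.73, 0.29 and -0.14 in GSI against T0. The gene was at -0.42 ± 2.29 and -0.14 ± 1.05 (low-side adjusted p = 0.831 and 0.912), and at 0.28 ± 1.41 in GSI against DMSO (high-side adjusted p = 0.995), with guides at 0.24, 0.58, 2.81, -1.10 and 0.28. The sixth guide of CPSF3, HGLibB_10989, was under the count minimum because it had 0 in all 6 cultures, with 27.3 and 10.6 normalized counts at T0. Set beside its Integrator paralog CPSF3L, CPSF3 had 4 of 5 and CPSF3L 5 of 6 negative guides in both comparisons with T0, and neither gene was called.

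FIP1L1 tethers poly(A) polymerase to CPSF. Its mean levels were 61.9, 80.2 and 69.1 normalized counts with GSI, 62.5, 102 and 82.8 with DMSO, and 177 and 122 at T0, so that both kinds of culture lay below T0. The guide HGLibA_17533 had the lowest p of all 171 in DMSO against T0, with 67.8, 52.6 and 73.0 normalized counts with GSI, 9.19, 32.0 and 34.0 with DMSO, and 487 and 278 at T0. Its log2 fold change was -3.93 in DMSO against T0 and -2.57 in GSI against T0 (edgeR adjusted p = 0.488 and 0.475). The other guides were at -0.58, 0.16, 0.20, 0.95 and -1.20 in DMSO against T0 and at -2.23, 0.18, -0.16, 0.77 and -1.21 in GSI against T0. The gene stood at -0.21 ± 1.73 and -0.69 ± 1.35 (low-side adjusted p = 0.454 and 0.596). Between GSI and DMSO cultures the gene was at -0.10 ± 0.96 (low-side adjusted p = 0.985), with guides at 1.36, -1.65, 0.02, -0.36, -0.18 and -0.01. The second of these, HGLibA_17534, had the lowest p among lower guides in that comparison, with 49.0, 28.9 and 15.6 normalized counts with GSI and 72.5, 127 and 93.4 with DMSO (edgeR adjusted p = 1), groups that did not overlap.

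The zinc finger subunit CPSF4, which helps to read the polyadenylation signal with WDR33, had 51.0, 43.8 and 43.96 normalized counts with GSI, 51.9, 45.4 and 60.9 with DMSO, and 124 and 121 at T0. It stood at -0.87 ± 1.43 in DMSO against T0 and -1.06 ± 1.13 in GSI against T0 (low-side adjusted p = 0.696 and 0.686), with 5 of 6 guides negative in both, and at 0.0037 ± 0.62 in GSI against DMSO. WDR33, its partner, had 25.5, 42.5 and 12.3 normalized counts with GSI, 23.2, 24.1 and 41.6 with DMSO, and 79.5 and 48.7 at T0. Its fold changes were -0.97 ± 1.08 and -0.92 ± 1.12 with low-side adjusted p-values of 1 in both, and 5 of its 6 guides were negative in both. CPSF2, the inactive partner of CPSF3, stood at -0.76 ± 0.95 and -0.51 ± 1.07 (low-side adjusted p = 0.991 and 0.895).

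SYMPK codes for symplekin, the scaffold that joins CPSF and CstF, and lies on chromosome 19 (GRCh38, chr19:45815410-45863147). Its mean levels were 99.2, 102 and 146 normalized counts with GSI, 122, 141 and 75.1 with DMSO, and 213 and 233 at T0. Both kinds of culture lay below T0 and overlapped each other. The 4 tested guides stood at -2.81, -5.90, -0.55 and 0.32 in DMSO against T0 and at -2.68, -4.48, -0.76 and 0.37 in GSI against T0, and the last of them, HGLibB_47894, had 305, 300 and 460 normalized counts with GSI, 420, 445 and 166 with DMSO, and 200 and 350 at T0. The guide HGLibB_47892 had 5.02, 19.3 and 5.84 normalized counts with GSI, 2.04, 0 and 9.56 with DMSO, and 299 and 164 at T0. The gene stood at -1.68 ± 2.78 in DMSO against T0 (low-side adjusted p = 0.207) and at -1.72 ± 2.14 in GSI against T0 (low-side adjusted p = 0.0920), where it ranked 2 of all genes. Its low-side p was under 0.05 in all 19 fits of each comparison, and its adjusted p passed the threshold in 1 of them in each. With guides of part B alone, the low-side adjusted p of SYMPK was 0.676 in DMSO against T0 and 0.750 in GSI against T0. Part A held 1 tested guide and gave no fit. In GSI against T0 the gene stood at -1.52 without T0 replicate 1 and at -1.81 without T0 replicate 2. Of the 2 guides below the count minimum, HGLibA_47952 had 10.0, 0 and 4.87 normalized counts with GSI, 0 in every DMSO culture, and 29.6 and 7.96 at T0.

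CstF binds the downstream element of the cleavage site. CSTF1 stood at -1.21 ± 1.33 in DMSO against T0 and at -1.39 ± 1.07 in GSI against T0 (low-side adjusted p = 0.815 and 0.961), with mean levels of 56.2, 70.4 and 46.1 normalized counts with GSI, 67.6, 46.3 and 56.5 with DMSO, and 109 and 148 at T0, which both kinds of culture stayed below. CSTF3 stood at -1.15 ± 1.37 and -0.67 ± 1.25 (low-side adjusted p = 1 and 0.9999), and all 5 of its tested guides, like those of CSTF1, were negative in GSI against T0. CSTF2, the RNA-binding subunit, had the opposite sign, 0.51 ± 1.44 in DMSO against T0 and 0.67 ± 0.99 in GSI against T0 (high-side adjusted p = 1 and 1), and its levels of 85.6, 63.2 and 65.1 normalized counts with GSI and 69.1, 78.0 and 77.9 with DMSO overlapped the 82.1 and 63.2 at T0. In GSI against DMSO these 4 genes lay between 0.02 and 0.48, and their lowest adjusted p on either side was 0.988.

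Cleavage factor Im binds upstream of the cleavage site and steers the choice among sites. CPSF7 had 131, 131 and 134 normalized counts with GSI, 119, 114 and 122 with DMSO, and 137 and 121 at T0. All GSI cultures lay above all DMSO cultures, by 1.12-fold in the mean, and DMSO replicates 1 and 2 lay below both T0 aliquots. Its guides were at 0.35, 0.01, -1.10, 1.00, 0.52 and -0.69 in GSI against DMSO and the gene at 0.18 ± 0.78 (low-side adjusted p = 0.985, high-side adjusted p = 0.981). CPSF7 stood at 0.02 ± 1.01 in DMSO against T0 and -0.04 ± 0.97 in GSI against T0. CPSF6 was at -0.53 ± 1.24 and -0.54 ± 1.23 (low-side adjusted p = 0.979 and 0.837). NUDT21 was at 0.03 ± 1.74 and -0.91 ± 2.25 (low-side adjusted p = 1 and 0.912), and its T0 aliquots were the furthest apart of the 30 genes, at 31.5 and 125 normalized counts, a 3.98-fold difference. The aliquots were within 2-fold of each other for 27 of the 30 genes.

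In cleavage factor IIm, PCF11, which binds the tail of RNA polymerase II and takes part in termination, had mean levels of 132, 107 and 109 normalized counts with GSI, 171, 88.8 and 71.7 with DMSO, and 168 and 189 at T0. The GSI cultures lay below T0, while DMSO replicate 1 lay between the T0 aliquots. Its guides stood at 1.80, -0.90, -5.45, 0.27, -0.20 and -1.89 in DMSO against T0 and at 1.18, -1.27, -3.23, 0.12, 1.77 and -1.15 in GSI against T0. The gene was at -0.55 ± 2.48 and -0.51 ± 1.83 (low-side adjusted p = 0.456 and 0.646). The lowest guide, HGLibA_35590, had 15.1, 9.63 and 9.73 normalized counts with GSI, 7.15, 0 and 0 with DMSO, and 120 and 95.5 at T0. Between GSI and DMSO cultures the gene was at 0.29 ± 1.23 (high-side adjusted p = 0.968). CLP1, an RNA kinase, was the only gene with all tested guides positive in DMSO against T0, at 0.50 ± 1.79 (high-side adjusted p = 1), and stood at 0.44 ± 1.98 in GSI against T0. Its guide HGLibB_10084, among the 3 higher guides with the lowest p in GSI against T0 (edgeR adjusted p = 0.539), had 31.4, 41.5 and 74.0 normalized counts with GSI, 13.3, 32.0 and 84.9 with DMSO, and 3.90 and 0 at T0. With 5 and 0 raw counts at T0, it met the count minimum only through the cultures, where it was higher. Its rise, and its place among the positive guides of CLP1, carries that selection and is no support.

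PAPOLA, the main nuclear poly(A) polymerase, had 93.1, 155 and 104 normalized counts with GSI, 78.9, 96.9 and 109 with DMSO, and 206.5 and 144 at T0. It stood at -1.24 ± 1.31 in DMSO against T0 (low-side adjusted p = 0.612) and at 0.20 ± 1.02 in GSI against T0 (low-side adjusted p = 0.988). Between GSI and DMSO cultures the gene was at -0.10 ± 0.75 although its high-side p was under 0.05 before adjustment (adjusted p = 0.968). The guide behind that p, HGLibA_35136, had 152, 191 and 155 normalized counts with GSI, 43.9, 55.5 and 75.4 with DMSO, and 180 and 109 at T0, so that the GSI cultures were at T0 level and did not overlap the DMSO cultures (log2 fold change 1.51, edgeR adjusted p = 1).

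RBBP6, an activator of the cleavage reaction, had mean levels of 112, 123 and 134 normalized counts with GSI, 115, 81.0 and 113 with DMSO, and 174 and 240 at T0. Both kinds of culture lay below T0. Its 5 tested guides stood at -2.07, -1.68, -1.08, -2.72 and 1.05 in DMSO against T0 and at -1.67, -0.87, 0.09, -2.08 and 0.20 in GSI against T0. The gene was at -1.68 ± 1.44 (low-side adjusted p = 0.309) and at -0.87 ± 1.02 (low-side adjusted p = 0.757), and at 0.64 ± 0.77 in GSI against DMSO (high-side adjusted p = 0.975).

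SSU72, a phosphatase that acts on the tail of RNA polymerase II, had 119, 75.7 and 85.8 normalized counts with GSI, 110, 45.2 and 94.3 with DMSO, and 116 and 92.4 at T0, and the groups overlapped. Its guides split in the comparisons with T0. In DMSO against T0 they stood at 3.81, -2.21, -0.75, -1.16, -3.88 and 1.82, and in GSI against T0 at 4.59, -1.19, -0.75, -2.62, -1.96 and 1.80. The gene was at -0.96 ± 2.78 and -0.97 ± 2.72, with low-side adjusted p-values of 0.692 and 0.831 and high-side adjusted p-values of 0.987 and 0.926. The first guide, HGLibA_47188, had 3 raw counts over both T0 libraries, and its ratio of 25.1 in GSI against T0 had an exact 95% interval of 8.34 to 124. This guide too met the count minimum only through the cultures, and the interval covers counting error only. The last guide, HGLibB_47133, had the lowest p among higher guides of the list in GSI against T0 (edgeR adjusted p = 0.475), with 423, 308 and 233 normalized counts with GSI, 480, 146 and 352 with DMSO, and 112 and 71.7 at T0. Between GSI and DMSO cultures the gene was at 0.39 ± 1.15 (high-side adjusted p = 0.981).

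The further guides with the lowest p-values in each comparison were few. In GSI against T0 the lowest p belonged to HGLibB_23377 against INTS10 (edgeR adjusted p = 0.475), with 7.53, 20.7 and 8.76 normalized counts with GSI, 16.3, 45.4 and 48.8 with DMSO, and 169 and 290 at T0. HGLibA_32969 against NUDT21 was among the higher guides, with 89.1, 172 and 128 normalized counts with GSI, 84.8, 95.9 and 36.1 with DMSO, and 39.0 and 15.9 at T0 (log2 fold change 2.23, edgeR adjusted p = 0.516). In GSI against DMSO the lower guides included HGLibB_23389 against INTS4, with 85.4, 17.0 and 48.7 normalized counts with GSI and 95.0, 160 and 142 with DMSO (log2 fold change -1.40, edgeR adjusted p = 1).

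Guides of parts A and B of the library were set beside each other as separate reagents against the same genes. In DMSO against T0 the medians of parts A and B were both negative for 15 of the 30 genes, positive for 4 and of opposite sign for 11. In GSI against T0 these counts were 16, 4 and 10, and in GSI against DMSO 4, 8 and 18. They were not made over all genes, so they cannot show whether the parts agreed more here than elsewhere. Some medians rested on few guides, SYMPK having 1 tested guide in part A.

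The wider pathway was read from 42 other genes, chosen by function with earlier results of these data known. Their shares are therefore no independent support. In DMSO against T0, 11 of them (26.2%) had a low-side p under 0.05, against 6.12% of all genes. On the high side there was 1 (2.38%), against 5.30%, and none was called by the aggregation of edgeR p-values. NELFB, a subunit of the pausing complex NELF, stood at -2.44 ± 0.78 (low-side adjusted p = 0.332) with all 6 guides negative, and NELFCD, another subunit, at -1.59 ± 0.88. In histone mRNA 3′ end processing, LSM11, a protein of the U7 particle, stood at -1.54 ± 1.15, and NPAT, which drives histone transcription, at -0.9953 ± 1.72. Further Integrator subunits among the 11 were ASUN (now INTS13, -0.72 ± 1.82), SHFM1 (a proteasome subunit also found with Integrator, -1.32 ± 1.35) and the phosphatase subunit PPP2CA (-0.74 ± 1.48). The remaining genes were TUT1, a nucleotidyl transferase of U6 RNA and of some mRNAs (-2.10 ± 1.82), PPP1CA, a phosphatase of the cleavage machinery (-1.18 ± 3.51), SNAPC5, of the snRNA promoter complex (-1.68 ± 2.21), and the termination exonuclease XRN2 (-0.17 ± 1.79). The high-side gene was the elongation factor SUPT4H1 (-0.05 ± 2.97, high-side adjusted p = 0.881).

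In GSI against T0, 9 of the 42 (21.4%) had a low-side p under 0.05, against 5.69% of all genes. On the high side there were 3 (7.14%), against 5.39%, again with none called. NELFB stood at -2.71 ± 1.27 and its partners NELFA and NELFCD at -1.69 ± 1.10 and -1.02 ± 1.77, while LSM11 was at -1.39 ± 1.99, ASUN at -0.66 ± 1.90, SHFM1 at -1.12 ± 1.55, SNAPC5 at -0.72 ± 1.63 and PPP2CA at -1.16 ± 1.41. RPRD1B, which binds the polymerase tail, was at -1.25 ± 0.99 with all 6 guides negative. On the high side were SUPT4H1, CPSF4L and the U7-associated protein gene ZNF473, with high-side adjusted p-values of 0.903, 0.888 and 0.913. In GSI against DMSO, 0 of the 42 had a low-side p under 0.05, against 5.06% of all genes, and 4 (9.52%) a high-side p, against 4.99%. The 4 were SCAF4 (-0.08 ± 1.33), XRN2 (0.43 ± 0.46), SNAPC5 (0.39 ± 1.20) and WDR82 (0.37 ± 1.02), with adjusted p-values of 0.762 or higher.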

How the data were processed

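Guides were sequenced from genomic DNA of MB157R cells in 3 GSI, 3 DMSO and 2 T0 libraries, grouped by the labels. The authors demultiplexed with bcl2fastq 2.19, checked reads with FastQC 0.11.5 and counted guides with MAGeCK 0.5.9.2, and deposited a table of raw counts per guide, which was used here, and a table of normalized signal per guide, deposited as the raw counts times 1 constant per library, which was not used. Guide sequences were not used here. Gene positions were read from RefSeq for GRCh38.

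Counts were divided by median-ratio size factors, and guides averaging under 10 raw counts across the 8 libraries were dropped (97.8% stayed). Each comparison was fitted with edgeR 4.0.16 (quasi-likelihood test, R 4.3.3) on its own libraries. One-sided guide p-values were combined by robust rank aggregation (alpha 0.25) with an exact null, for genes with at least 4 tested guides, with Benjamini-Hochberg adjustment over 18570 genes or 116852 guides. Scripts were tested on simulated data. Gene levels are means over tested guides. All members were named, and levels in every library were given, with the fold change of every tested guide in that comparison, for the 4 genes lowest on the low side and the 2 lowest on the high side of a comparison, and in all comparisons for CPSF3 and CPSF3L. A guide at 0 throughout a group has a bound on the ratio of group means instead. With no guide called by edgeR, each comparison has its 3 guides of smallest p named per direction, and of the other pathway genes those with an unadjusted p under 0.05. Other guides were shown for a value at 0 or an outlying level, chosen after their values were seen. Alternatives covered scaling, the count minimum, alpha, the half-libraries, the replicate block, single libraries left out, limma 3.58.1 on mean log2 values (pseudocount 1) and DESeq2 1.42.0. The genes and lists were chosen with earlier results of these data known.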

Additional observations from a re-analysis of the deposited data

How the results depend on the processing

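The medians of both comparisons with T0 stayed negative under each of the 19 alternatives, while that of GSI against DMSO changed sign in 2 of 20. In GSI against DMSO the median of 0.06 became -0.12 with library totals, which moved the median of all genes to -0.22, 0.12 with non-targeting controls, 0.13 with the replicate block, 0.10 in half-library A, -0.0087 in half-library B and 0.31 with limma, and lay between 0.0418 and 0.159 with 1 library left out. The 1 lower gene at unadjusted p under 0.05 became 3 in half-library A (4.95% of all genes), 0 with limma (2.41%) and 0 to 3 with 1 library left out (4.99% to 5.09%). The 6 higher genes became 3 in half-library A (4.95%), 3 with limma (7.44%), 1 on summed counts (3.34%) and 3 to 4 with 1 library left out (5.01% to 5.33%). In DMSO against T0, where 0 genes were called, 1 was called with the replicate block (SYMPK, adjusted p = 0.0474, 0.0269% of all genes). Another was called by edgeR on summed counts (INTS8, adjusted p = 0.0200, 101 or 0.544% of all genes). With 1 DMSO culture left out the count was 0. The median of -0.64 became -0.89 with non-targeting controls (all genes -0.25), -0.46 with the replicate block and -0.34 in half-library B, and -0.77 to -0.50 with 1 library left out. The 11 lower genes became 7 to 12 and the 0 higher genes 0 to 1 with 1 library left out. The 0 called guides became 22 with DESeq2 (5.66% of all guides), 16 without T0 replicate 1 (7.13%) and 2 without T0 replicate 2, a range of 0 to 16. In GSI against T0, 1 gene was called with library totals (SYMPK, adjusted p = 0.0481, 0.0539% of all genes). With totals taken without the most abundant guide, SYMPK had an adjusted p of 0.0758 and 0 of all genes were called. The median of -0.52 became -0.68 with library totals (all genes -0.16), -0.73 with non-targeting controls (all genes -0.22) and -0.39 with limma (all genes 0.40), and -0.68 to -0.32 with 1 library left out. The 9 lower genes became 17 on summed counts (14.5% of all genes) and 9 to 11 with 1 GSI culture left out (5.64% to 5.77%). The 0 higher genes became 2 with the replicate block (5.46% of all genes), 1 with limma (25.5%) and 1 with DESeq2 (5.39%). With 1 GSI culture left out they stayed at 0 (5.22% to 5.3%). The 0 called guides became 23 with DESeq2 (6.71%), 35 without T0 replicate 1 (18.1%) and 14 without T0 replicate 2 (4.72%), a range of 0 to 35. A fit without a T0 replicate assumes that the lone aliquot varies like the cultures. The cause of these shifts was not tested.

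The labels do not say whether replicate numbers pair the cultures, and the fits without the replicate block were kept as the main ones. Same-numbered GSI and DMSO libraries correlated at 0.309, 0.07 and 0.135 in their deviations from the group means, and other pairs at 0.053 or lower. Each correlated best with its own number, which is a hint from the data and not the design. With T0 all such correlations lay between -0.043 and 0.043. The replicate block changed no other call. The sign of single fold changes moved in 88 of 591 values in GSI against DMSO, 58 of 561 in DMSO against T0 and 52 of 561 in GSI against T0. Of the 171 tested guides, 10, 19 and 17 had 0 counts in some GSI, DMSO or T0 library, where depth allows only a bound on the level. The share of guides at 0 did not follow the depth of a library, being 1.39% in GSI replicate 3 with 12.9 M counts and 5.12% and 11.5% in the T0 libraries with 17.7 M and 15.2 M.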
